A study of Mus musculus with 2 samples.

Results

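Collagen genes were followed across the cell classes of injured mouse carotid arteries. They were taken as every gene symbol of the form Col, number, a, number in the deposited gene table, which gave 44 of its 32285 genes. Of these, 35 had at least 20 unique molecular identifiers (UMIs, each standing for 1 captured messenger RNA molecule) over the named cell classes of both libraries and were kept: 9 of 11 fibrillar, 8 of 8 basement membrane and 18 of 25 other collagens. The remaining 9 symbols had 1 to 18 UMIs each; the closest to the limit were Col24a1 with 18 UMIs outside it and Col8a2 with 22 UMIs inside it.

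Single cells were counted from the 3′ ends of their transcripts, and each count stands for a captured molecule. Whether gene length enters comparisons between genes, such as the ratios of chains below, was not tested. The arteries were taken 18 hours after endothelial injury by a temporary ligation. The control library came from Cx43 fl/fl mice negative for Cdh5 Cre, and the library labelled knockout from Cx43 fl/fl mice positive for Cdh5 Cre, so both carried the floxed connexin 43 gene. The Cre is driven by an endothelial promoter and is described as inducible, and each library is 1 pool of arteries digested briefly from the opened lumen, which limits how well either stands for its genotype or for the deeper artery wall. The control library held 48862850 UMIs and the library labelled knockout 54392831 UMIs, with 6376 and 7236 cells kept, and 11 cell barcodes occurred among the kept cells of both. Each genotype is 1 library, so differences between them carry no replicate error and no test was made. Intervals are at 95% and measure the error of counting alone. Gja1, the targeted gene, was at 22.5 counts per 1000000 UMIs of the class (CPM; exact Poisson interval 18.1 to 27.6) in control endothelial cells and at 36.4 CPM (30.9 to 42.6) in those labelled knockout, and at 16.7 and 17.7 CPM without a small subcluster led by Fabp4. The counts do not show which part of Gja1 the tags cover, so they do not check the genotype, and every direction below is that of the library labelled knockout.

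Collagens are triple-helical matrix proteins built from 3 chains, and each chain has its own gene. Fibrillar collagens form the load-bearing fibres of the adventitia and media, with types I and III the most abundant and type V setting fibre diameter. Basement membranes, the sheets under endothelium and around each smooth muscle cell, are built on networks of type IV collagen, with types XV and XVIII attached to them. Other families are fibre-associated (types XII, XIV, XVI and XIX), beaded filaments (type VI), short-chain networks (type VIII) or membrane-spanning collagens (types XVII, XXIII and XXV).

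Cell classes were named from markers, and collagen genes were left out of the clustering, so their levels did not form the classes. There were 1391 fibroblast-like cells in the control library and 1595 in the library labelled knockout. SMC-like (smooth muscle) cells numbered 409 and 546, and EC-like (endothelial) cells 479 and 582. In the control library these classes had UMIs of all 19, 14 and 21 fixed markers of their type. The same markers named the classes, so this does not check the names. Control EC-like and neutrophil-like cells also had UMIs of all 19 fibroblast markers and all 14 SMC markers. The level of the fibroblast markers summed to 17879 and 16327 CPM in the fibroblast-like class, to 2014 and 1937 CPM in the SMC-like class and to 966 and 767 CPM in the EC-like class. Neutrophil-like cells, which are not known to make collagen, were at 653 and 675 CPM of the same markers and serve below as a level for free RNA. They are shallow, with medians of 1839 and 1657 UMIs. Monocyte/macrophage-like cells, with medians of 6178.5 and 6713 UMIs, were at 440 and 344 CPM of these markers, so this level depends on the class chosen.

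The 6 type IV genes lie as 3 neighbouring pairs, each pair read outward from a shared starting region. In the annotation of GRCm38 (mm10), Col4a1 and Col4a2 on chromosome 8 overlap by 22 bases at their 5′ ends. Col4a4 and Col4a3 on chromosome 1 start 71 bases apart, and Col4a6 and Col4a5 on chromosome X start 1308 bases apart. Sequence between the genes is shown for the Col4a4 and Col4a6 pairs. The reason, as given below, is that the 2 genes of a pair followed each other across cell classes while the pairs did not. The gap between Col4a6 and Col4a5 is shown only for 250 bases next to Col4a6 and 216 bases next to Col4a5. Sequences are those of RefSeq for GRCm38.p6, read 5′ to 3′ on the strand of the gene named and ending just before its start. Capitals mark matches to CCAAT or GGGCGG on either strand, and no matches overlapped.
Col4a4, minus strand, chr1:82586850-82586920, the whole gap to Col4a3: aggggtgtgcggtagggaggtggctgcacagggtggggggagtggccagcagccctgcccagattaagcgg
Col4a6, minus strand, chrX:141474077-141474326: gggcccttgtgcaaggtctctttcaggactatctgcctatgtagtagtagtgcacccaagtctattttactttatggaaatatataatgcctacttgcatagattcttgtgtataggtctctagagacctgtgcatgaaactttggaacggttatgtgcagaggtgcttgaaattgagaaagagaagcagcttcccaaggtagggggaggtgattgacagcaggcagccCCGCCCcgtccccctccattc
Col4a5, plus strand, chrX:141475169-141475384: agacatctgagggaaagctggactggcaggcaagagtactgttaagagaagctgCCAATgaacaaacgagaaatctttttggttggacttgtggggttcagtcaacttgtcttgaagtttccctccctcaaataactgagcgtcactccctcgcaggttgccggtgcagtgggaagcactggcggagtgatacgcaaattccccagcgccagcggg
The short gap between Col4a4 and Col4a3 held none of the motifs searched, which on both strands were the TATA box (TATAAA), the CCAAT box, the GC box (GGGCGG) and the CArG box, and 69.0% of its bases were G or C, against 47.6% and 52.3% in the other 2 stretches. RefSeq windows of 300 bases were found for 29 of the 35 members. GGGCGG was present in 20 of these 29 (69.0%) and in 35.7% of all 32851 windows, CCAAT in 11 (37.9%, against 37.4%), TATAAA in 3 (10.3%, against 13.6%) and the CArG box in 0 (against 1.63%). A match to these letters is a description of the window and not a binding site.

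Most collagen messages lay in 3 stromal classes. They made up 1.34% of all UMIs of fibroblast-like cells in the control library and 1.18% in the library labelled knockout, 0.841% and 0.823% in SMC-like cells, and 0.241% and 0.254% in EC-like cells. The few Schwann-like cells were at 0.556% and 0.540%, above the EC-like share. Neutrophil-like cells were at 0.0290% and 0.0286% and monocyte/macrophage-like cells at 0.0113% and 0.0105%. Fibroblast-like cells alone held 80.3% and 75.4% of the collagen UMIs of each library, SMC-like cells 14.3% and 18.4% and EC-like cells 4.08% and 4.60%. Col1a1, Col1a2 and Col3a1 together gave 66.1% of the collagen UMIs in named classes. The classes differed in the kind of collagen as well as in the amount. Fibrillar genes were 82.7% and 81.1% of the collagen UMIs of fibroblast-like cells, 56.3% and 57.4% of those of SMC-like cells and 34.8% and 33.0% of those of EC-like cells. Basement membrane genes ran the other way, at 5.66% and 6.26%, 31.9% and 31.5%, and 43.0% and 48.9%. The order of the 3 classes was the same in both libraries for each of these shares.

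**Figure D1:**
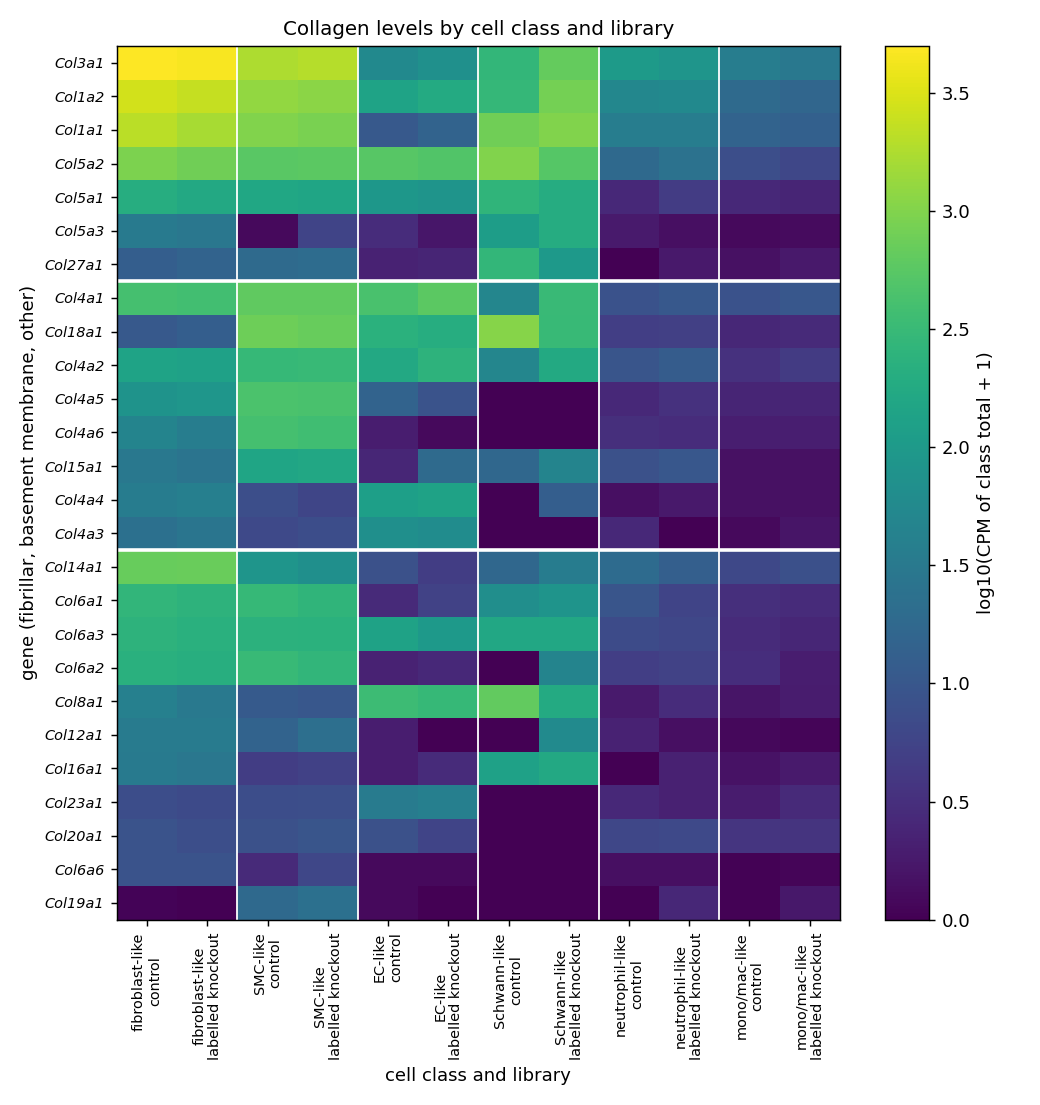
Level of the 26 collagen genes with at least 100 UMIs (rows, grouped as fibrillar, basement membrane and other) in 6 cell classes of both libraries (columns), as log10(CPM of the class total + 1). Fibroblast-like columns are brightest in the top rows, SMC-like columns in Col4a5, Col4a6 and Col18a1, and EC-like columns in Col8a1, Col4a3, Col4a4 and Col23a1.

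Members with at least 20 UMIs in a pair of classes were counted past 1.5-fold in both libraries, beside all genes. Their share was the larger for genes higher in fibroblast-like than in SMC-like or EC-like cells, and higher in SMC-like than in EC-like cells. In the lower directions it was near or below the share of all genes. Fibroblast-like cells were higher than SMC-like cells for 12 of 30 members (40.0%, against 21% of all genes) and lower for 7 (23.3%, against 19.3%). Fibroblast-like cells were higher than EC-like cells for 16 of 30 (53.3%, against 19.9%) and lower for 6 (20%, against 23.5%). SMC-like cells were higher than EC-like cells for 17 of 26 (65.4%, against 17.1%) and lower for 4 (15.4%, against 21.4%). The 4 genes lower in SMC-like than in EC-like cells were Col8a1, Col4a4, Col4a3 and Col23a1. The 7 genes lower in fibroblast-like than in SMC-like cells were Col19a1 and 6 of the 8 basement membrane genes, all but Col4a3 and Col4a4.

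Among fibrillar genes, Col3a1, the single chain of type III collagen (chromosome 1, 45311538 to 45349706), was the most abundant collagen. Its level was 4995 CPM in fibroblast-like cells of the control library and 4530 CPM in those of the library labelled knockout. In SMC-like cells it was 1753 and 1927 CPM and in EC-like cells 56.3 and 71.2 CPM. Col1a2 and Col1a1, the 2 chains of type I collagen, were at 2824 and 2371 CPM and at 2096 and 1630 CPM in fibroblast-like cells. In SMC-like cells Col1a2 was at 1243 and 1136 CPM and Col1a1 at 984 and 909 CPM. The 3 genes thus kept the order fibroblast-like, SMC-like, EC-like in both libraries.

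EC-like cells carried 1 chain of type I collagen far above the other. Col1a2 was at 140 and 179 CPM there, above the 49.7 and 55.8 CPM of neutrophil-like cells. Col1a1 was at 9.87 and 14.2 CPM, below the 36.1 and 36.4 CPM of neutrophil-like cells. It was near the 14.1 and 12.5 CPM of monocyte/macrophage-like cells, so it is not told apart from background. The ratio of Col1a2 to Col1a1 UMIs was 14.2 (10.3 to 20.1) in the control library and 12.5 (9.65 to 16.6) in the library labelled knockout. It was 1.35 and 1.45 in fibroblast-like cells, 1.26 and 1.25 in SMC-like cells and 1.38 and 1.53 in neutrophil-like cells, so the EC-like ratio lay outside the counting intervals of every one of these. After thinning each cell to 1000 UMIs, a Col1a2 UMI was found in 13.4% of control and 12.5% of labelled knockout EC-like cells, against 4.94% and 4.50% of neutrophil-like cells. A Col1a1 UMI was found in 0.706% and 1.92%, against 2.84% and 4.39%. The unthinned EC-like shares were 50.9% and 51.2% for Col1a2 and 6.05% and 8.59% for Col1a1, at median depths of 6318 and 6016.5 UMIs, against 9.35%, 9.41%, 6.81% and 6.71% in neutrophil-like cells at 1839 and 1657 UMIs. Thinning left out 54 and 60 EC-like and 293 and 384 neutrophil-like cells.

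Col5a2 and Col5a1, the chains of type V collagen, were the fibrillar genes that differed least between the 3 classes. Col5a2 was at 928 and 792 CPM in fibroblast-like, 574 and 577 CPM in SMC-like and 540 and 490 CPM in EC-like cells, against 17.4 and 24.1 CPM in neutrophil-like cells. Col5a1 was at 202 and 171 CPM, 160 and 149 CPM, and 89.9 and 80.6 CPM. In EC-like cells Col5a2 was the most abundant collagen of the control library and exceeded Col3a1 9.60-fold (8.37 to 11.1) and 6.89-fold (6.10 to 7.79), while in fibroblast-like cells it was 0.186 and 0.175 times Col3a1. Col3a1 in EC-like cells was below the 102 and 83.1 CPM of neutrophil-like cells. It was above the 35.8 and 29.4 CPM of the deeper monocyte/macrophage-like cells, so it is not read as background or as EC-like expression. Col5a3, a further type V chain, was at 32.8 and 27.8 CPM in fibroblast-like cells. Col27a1, a fibrillar collagen of cartilage and developing tissues, was at 11.8 and 14.0 CPM there and at 18.1 and 19.1 CPM in SMC-like cells.

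**Figure D2:**
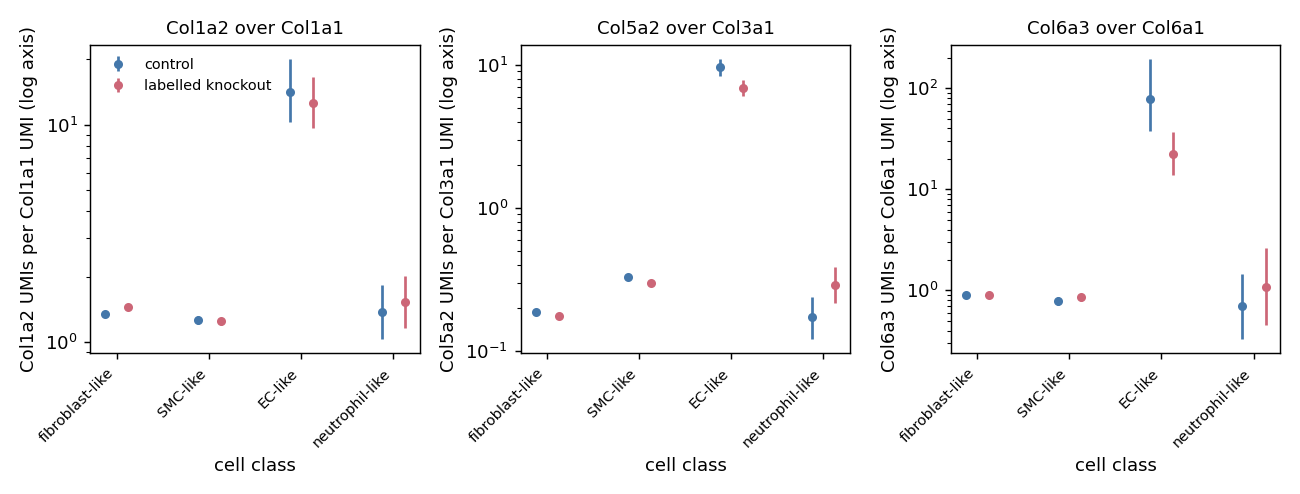
Ratio of UMIs between pairs of collagen genes (log axes) in 4 cell classes of each library, with exact conditional 95% intervals of counting error. The EC-like ratios of Col1a2 to Col1a1, Col5a2 to Col3a1 and Col6a3 to Col6a1 stand above those of fibroblast-like, SMC-like and neutrophil-like cells in both libraries.

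The basement membrane genes separated the stromal classes by pair. Col4a1 and Col4a2, the chains of the ubiquitous type IV network, were present in all 3. Col4a1 was at 403 and 383 CPM in fibroblast-like, 622 and 619 CPM in SMC-like and 430 and 581 CPM in EC-like cells, and Col4a2 at 138 and 130 CPM, 304 and 312 CPM, and 169 and 242 CPM. Col4a3 and Col4a4, chains best known from the basement membranes of kidney and lung, were highest in EC-like cells. Col4a4 was at 123 and 133 CPM there, 34.8 and 38.6 CPM in fibroblast-like and 6.61 and 4.91 CPM in SMC-like cells. Col4a3 was at 68.1 and 61.4 CPM, 22.4 and 26.3 CPM, and 5.63 and 6.43 CPM. A Col4a4 UMI was found in 14.1% and 12.1% of EC-like cells thinned to 1000 UMIs, against 0% and 0.219% of neutrophil-like cells; the control value is 0 of 809 cells, with an exact binomial upper end of 0.455%.

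Col4a5 and Col4a6, which join in the type IV network of smooth muscle basement membranes, showed the opposite order. Col4a5 was at 445 and 435 CPM in SMC-like, 77.1 and 85.9 CPM in fibroblast-like and 14.1 and 7.71 CPM in EC-like cells. Col4a6 was at 400 and 362 CPM in SMC-like cells and 46.4 and 36.1 CPM in fibroblast-like cells, and EC-like cells held 4 and 1 of its UMIs. The UMI ratio of Col4a5 to Col4a6 was 1.11 and 1.20 in SMC-like cells and 1.66 and 2.38 in fibroblast-like cells, and that of Col4a4 to Col4a3 was 1.81 and 2.16 in EC-like cells and 1.56 and 1.47 in fibroblast-like cells. Fibroblast-like cells held all 6 chains, at levels below the leading class for each.

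**Figure D3:**
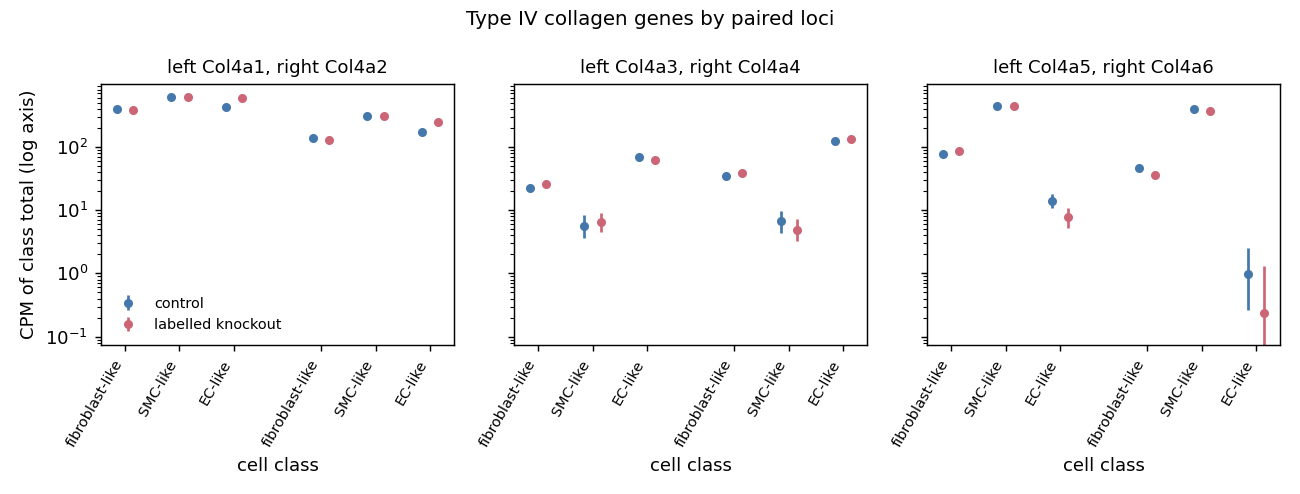
Level of the 6 type IV collagen genes (CPM of the class total, log axis) in the 3 stromal classes of each library, with exact Poisson 95% intervals of counting error. Col4a1 and Col4a2 stay between 130 and 622 CPM, Col4a3 and Col4a4 are lowest in SMC-like cells, and Col4a5 and Col4a6 are lowest in EC-like cells.

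Col18a1 and Col15a1 encode the basement membrane proteoglycans that are the sources of endostatin and restin. Col18a1 was at 749 and 695 CPM in SMC-like cells, where it was the most abundant basement membrane gene. It was at 232 and 198 CPM in EC-like cells and 9.76 and 11.8 CPM in fibroblast-like cells, against 3.83 and 3.96 CPM in neutrophil-like cells. The 10 and 28 Schwann-like cells were at 1060 and 307 CPM of Col18a1, so the leading class over all differed between the libraries. Col15a1 was at 150 and 162 CPM in SMC-like and 28.8 and 25.4 CPM in fibroblast-like cells, and at 1.48 and 18.0 CPM in EC-like cells. The 2 library values in EC-like cells do not agree for Col15a1 and are taken up below.

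Of the other collagens, Col14a1, which coats type I fibres, was the one with most UMIs and was largely a fibroblast-like gene. It was at 684 and 705 CPM in fibroblast-like, 84.5 and 68.6 CPM in SMC-like and 7.16 and 3.74 CPM in EC-like cells, the last below the 18.7 and 12.3 CPM of neutrophil-like cells. Col16a1, which also associates with fibres, was at 32.2 and 28.7 CPM in fibroblast-like cells and no higher than 4.16 CPM in the other 2 stromal classes. Col12a1 was at 33.5 and 34.0 CPM in fibroblast-like and 14.2 and 21.4 CPM in SMC-like cells, and Col6a6 at 7.74 and 7.73 CPM in fibroblast-like cells. Col19a1, a fibre-associated collagen of muscle, was at 17.1 and 22.5 CPM in SMC-like cells, while fibroblast-like cells held 1 and 0 of its UMIs.

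The 3 chains of type VI collagen, which together form its beaded filaments, split in EC-like cells. Col6a1, Col6a2 and Col6a3 were at 274 and 245 CPM, 222 and 204 CPM, and 246 and 222 CPM in fibroblast-like cells. In SMC-like cells they were at 300 and 265 CPM, 309 and 270 CPM, and 236 and 226 CPM. In EC-like cells Col6a3 was at 136 and 98.3 CPM, with 550 and 421 UMIs, while Col6a1 had 7 and 19 UMIs and Col6a2 5 and 7. The ratio of Col6a3 to Col6a1 was 78.6 (37.9 to 196) and 22.2 (14.0 to 37.2) in EC-like cells, against 0.897 and 0.906 in fibroblast-like and 0.788 and 0.853 in SMC-like cells. Both Col6a1 and Col6a2 were below the neutrophil-like level in EC-like cells of both libraries. For Col6a1 in the library labelled knockout the gap was small, at 4.44 against 4.75 CPM.

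Of the 3 stromal classes, EC-like cells had the highest Col8a1 and Col23a1. Col8a1, a network collagen known from activated vessel walls, was at 344 and 300 CPM in EC-like cells, 39.2 and 29.8 CPM in fibroblast-like and 10.3 and 9.07 CPM in SMC-like cells. The 10 and 28 Schwann-like cells were at 636 and 179 CPM of Col8a1, so the leading class over all differed between the libraries. In cells thinned to 1000 UMIs a Col8a1 UMI was found in 17.4% and 15.1% of EC-like cells and 0.247% and 0.110% of neutrophil-like cells. Col8a2, its usual partner chain, had 22 UMIs in all classes together, none of them in EC-like cells. Col23a1 was at 33.1 and 38.8 CPM in EC-like cells, against 6.48 and 5.75 CPM in fibroblast-like and 6.37 and 6.81 CPM in SMC-like cells. Col20a1 was at a similar low level in 4 classes, with 7.87 and 6.67 CPM in fibroblast-like, 7.35 and 8.32 CPM in SMC-like, 7.41 and 4.67 CPM in EC-like and 5.10 and 5.54 CPM in neutrophil-like cells. It was lower in monocyte/macrophage-like cells, at 2.78 and 2.62 CPM.

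A class of 10 control and 28 labelled knockout Schwann-like cells stood highest in both libraries for 6 members. Col28a1, a collagen known from the sheaths of peripheral nerves, was at 245 (137 to 403) and 220 (156 to 302) CPM there, against 0.627 and 0.991 CPM in fibroblast-like cells. Col16a1 was at 130 and 168 CPM, Col5a3 at 114 and 191 CPM, Col27a1 at 277 and 98.4 CPM and Col11a1 at 130 and 63.7 CPM. Col5a1 was at 261 and 197 CPM. Col5a2, at 995 and 527 CPM, was highest there in the control library only. So few cells allow no statement on these genes between the libraries. Fibroblast markers summed to 212 and 1314 CPM in the class and SMC markers to 65.2 and 752 CPM. The part of other cells in these collagen levels was not tested. Col11a2, Col9a3, Col7a1, Col25a1 and Col8a2 had at most 28 UMIs in any class of either library, and no class order is read from them. Outside the stromal and Schwann-like cells, the ratio of Col1a2 to Col1a1 in monocyte/macrophage-like cells was 1.30 (1.08 to 1.55) and 1.24 (1.03 to 1.49), near the fibroblast-like ratio.

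Fibroblast-like cells were clustered again without the collagen genes into 9 subclusters, numbered 0 to 8, whose collagen share spanned a 2.25-fold range in the control library and a 2.50-fold range in the library labelled knockout among those with at least 20 cells. The highest share was in subcluster 3, led by the matrix genes Smoc2 and Mfap4, at 1.78% and 1.63%, and the lowest in subcluster 5, led by Tmem267, Esm1 and Inhba, at 0.789% and 0.651%. In that low subcluster Col1a2 was at 928 and 813 CPM and Col14a1 at 172 and 145 CPM, while Col6a3 was at 434 and 437 CPM. Its fibroblast markers summed to 8099 and 6549 CPM, against 28231 and 25676 CPM in subcluster 3. Col5a2 stood apart in subcluster 6, led by Sdk1 and Veph1, at 2274 and 2183 CPM, where Col1a1 was lowest of all at 820 and 712 CPM. Col14a1 was highest in subclusters 6 (1403 and 1079 CPM) and 1 (led by Cxcl13 and Dpp4, 1223 and 1332 CPM). Col4a5 and Col4a4 were highest in subcluster 0, led by Smoc1 and Cntn6, at 204 and 225 CPM and at 94.2 and 82.7 CPM. Subcluster 4 was led by the neutrophil genes S100a8 and S100a9, had a median of 1168 UMIs per cell and held 1369 and 3136 CPM of neutrophil markers, and its collagen share was 1.08% and 0.814%. The part of other cells in that share was not tested.

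SMC-like subclusters differed less, with a range of 1.27-fold and 1.37-fold among those with at least 20 cells. Among subclusters 0 to 3, Col18a1 ranged from 348 and 341 CPM in subcluster 1, led by Dcn and Mmp3, to 1099 and 905 CPM in subcluster 2, led by Igfbp5 and Notch3. Col14a1 was highest in subcluster 1, at 213 and 139 CPM. Col3a1 was at 2288 and 2672 CPM in subcluster 1 and at 2357 and 1938 CPM in subcluster 2, so the leading subcluster differed between the libraries. Subcluster 1 had 4 fibroblast markers among its 10 leading genes, and its fibroblast and SMC markers summed to 2926 and 2654 CPM and to 17156 and 20900 CPM. Col15a1 was highest in subcluster 3, led by Thbs1 and Esm1, at 263 and 323 CPM.

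Among EC-like subclusters, 2 stood apart in different collagens. Subcluster 5, led by Fabp4, Cd36 and Gpihbp1, genes of capillary endothelium, had 7 control and 42 labelled knockout cells. Its Col4a1 was at 1899 and 2897 CPM and its Col4a2 at 1324 and 1504 CPM, against 314 to 652 CPM and 62.1 to 272 CPM in the other subclusters. Its Col15a1 was at 75.0 and 248 CPM, while Col5a2, the collagen with most UMIs in control EC-like cells as a whole, had 0 and 1 UMIs there and Col1a2 0 and 7.41 CPM. EC markers summed to 9871 and 12736 CPM in it and SMC markers to 249.9 and 329.7 CPM. Subcluster 4, led by Ccnd1, Ano1 and Procr, had 49 and 59 cells and the highest Col8a1, at 775 and 802 CPM, and the highest Col18a1, at 379 and 403 CPM. Col4a4 was low in subcluster 4 at 44.2 and 42.4 CPM, against 193 and 194 CPM in subcluster 1. Subcluster 3, led by S100a8 and Ccl2, was shallow at a median of 786 UMIs.

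**Figure D4:**
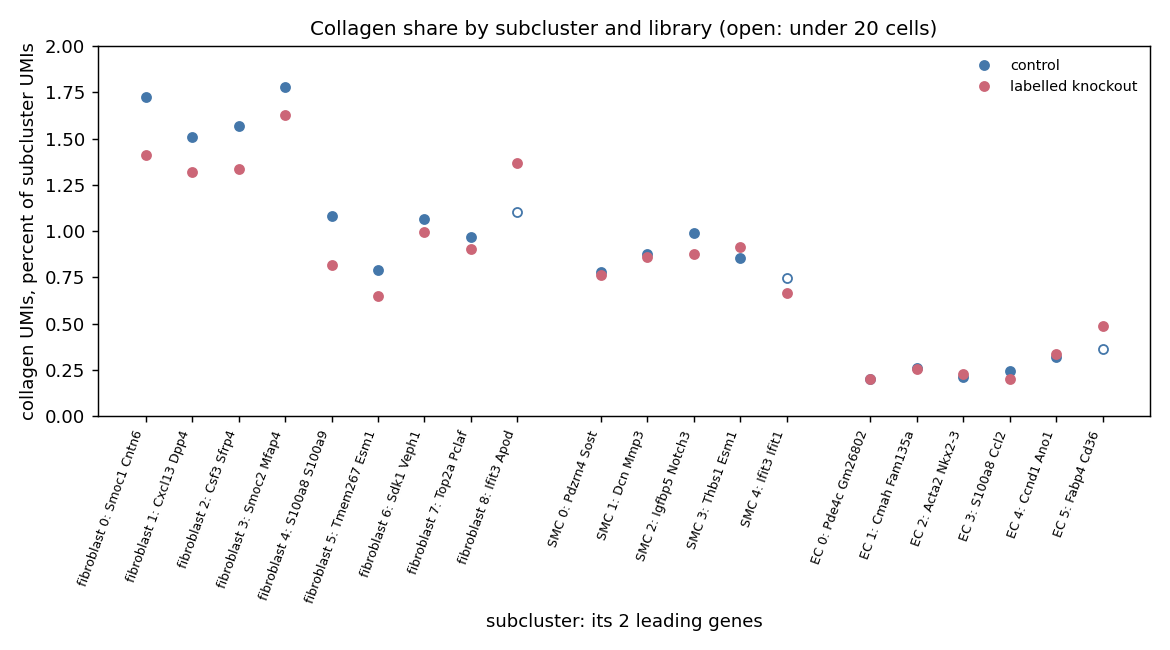
Collagen UMIs as percent of all UMIs in each subcluster of the fibroblast-like, SMC-like and EC-like classes, 1 point per library, with open points for fewer than 20 cells. Control points lie above labelled knockout points in fibroblast-like subclusters 0 to 7 and below in subcluster 8, which has 9 control cells.

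Between the libraries, collagen levels in fibroblast-like cells were slightly lower in the library labelled knockout, and few members passed 1.5-fold. All collagens together had a log2 ratio of labelled knockout to control of -0.19 (-0.20 to -0.18), and fibrillar genes -0.22 (-0.23 to -0.21). Basement membrane genes were at -0.04 and other collagens at -0.06, and turned to 0.03 and 0.02 under median-of-ratios scaling, which sets the typical gene of the class to 0. The fibrillar value was -0.14 under that scaling. Of 28 measured members 1 was at least 1.5-fold higher, against 5.63% of all genes, and 2 were lower, against 5.85%. The median log2 ratio was -0.15 over these members and -0.08 over all 14343 genes measured in the class.

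Col1a1 in fibroblast-like cells was at 2096 CPM in control cells and at 1630 CPM in those labelled knockout, a log2 ratio of -0.36 (-0.39 to -0.34). Col1a2 was at -0.25 (-0.27 to -0.23), Col5a2 at -0.23 (-0.26 to -0.19) and Col3a1 at -0.14 (-0.16 to -0.13). These 4 genes have the most UMIs in the class and none reached 1.5-fold. Col1a1 was lower in subclusters 0 to 7, by log2 ratios from -0.65 to -0.10, and higher in subcluster 8, led by the interferon-response gene Ifit3, at 0.38, with 9 control and 95 labelled knockout cells. The collagen share was 1.10% and 1.37% in that subcluster. Without it the fibrillar ratio was -0.23. Cells with Xist and no Y-linked UMIs gave a fibrillar ratio of -0.12 and cells with Y-linked and no Xist UMIs -0.19; the libraries differed in their mix, with 630 and 520 against 389 and 584 fibroblast-like cells.

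The members past 1.5-fold in fibroblast-like cells were rare genes. Col6a5, a type VI chain, had 39 UMIs in 14 control cells and 13 UMIs in 7 labelled knockout cells, a log2 ratio of -1.66 (-2.69 to -0.73), and -1.24 without the 1 cell with most of its UMIs. Col17a1 had 16 and 5 UMIs and Col28a1 9 and 15. Col8a1 was at -0.39 (-0.58 to -0.21) but its UMIs sat in few cells: 5.82% and 6.27% of fibroblast-like cells had one. The 9 control cells of subcluster 8 held 123 of the 562 control UMIs of Col8a1. The log2 ratio of Col8a1 was -1.56 in cells with Xist and 0.84 in cells with Y-linked UMIs.

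In SMC-like cells the collagen levels of both libraries were close. The log2 ratio was -0.03 (-0.05 to -0.01) for all collagens, -0.003 for fibrillar, -0.05 for basement membrane and -0.12 for other collagens. Col3a1 was at 0.14 (0.09 to 0.18), Col1a2 at -0.13 (-0.18 to -0.07), Col1a1 at -0.11 (-0.18 to -0.05) and Col18a1 at -0.11 (-0.18 to -0.04). Of 26 measured members 3 were at least 1.5-fold higher, against 5.75% of all genes, and 0 lower, against 4.55%. Col12a1 had 58 and 113 UMIs, a log2 ratio of 0.59 (0.12 to 1.07) that was 0.34 without 1 cell holding 18 of its UMIs. The others were Col5a3, with 1 and 25 UMIs, and Col6a6, with 7 and 27.

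In EC-like cells the basement membrane genes were higher in the library labelled knockout, and this difference lay in the Fabp4-led subcluster. Their log2 ratio was 0.26 (0.20 to 0.32), while that of fibrillar genes was -0.003 and that of other collagens -0.22. The fibrillar sum joined members of both signs. Col1a2 was at 0.35 (0.19 to 0.51), Col3a1 at 0.34 (0.09 to 0.59) and Col1a1 at 0.53 (-0.07 to 1.14). Col5a2 was at -0.14 (-0.23 to -0.05) and Col5a1 at -0.16 (-0.37 to 0.06). Col4a1 was at 0.43 (0.35 to 0.52) and Col4a2 at 0.52 (0.38 to 0.67). Without the 7 and 42 cells of that subcluster, an alternative chosen after seeing the data, the basement membrane ratio was -0.02, Col4a1 stood at 415 and 425 CPM (0.03, -0.06 to 0.13) and Col4a2 at 157 and 158 CPM (0.004, -0.16 to 0.17). Col1a2 was at 0.43 (0.27 to 0.59) in the remaining cells. The subcluster held 0.988% of control and 6.30% of labelled knockout EC-like UMIs. A larger number of such cells and more collagen RNA per cell cannot be told apart in the class total. Within the subcluster Col4a1 had a log2 ratio of 0.61 (0.27 to 0.97) and Col4a2 0.18 (-0.23 to 0.62), from 76 and 53 control UMIs.

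Of 18 measured members in EC-like cells 2 were at least 1.5-fold higher, against 5.53% of all genes, and 3 lower, against 5.86%. Col15a1 had 6 UMIs in 5 control cells and 77 UMIs in 19 labelled knockout cells, a log2 ratio of 3.60 (2.41 to 5.09). Of the 77, 67 were in the Fabp4-led subcluster and 34 in 1 cell. Without the subcluster 3 and 10 UMIs remained (1.74, -0.22 to 4.24), at 0.748 and 2.49 CPM. These levels were below the 7.23 and 9.10 CPM of neutrophil-like cells and above the 0.443 and 0.477 CPM of monocyte/macrophage-like cells. In EC-like cells with Y-linked UMIs the counts of Col15a1 were 2 and 5. Col6a1 had 7 and 19 UMIs, which is below the neutrophil-like level. Col4a5 was lower, with 57 and 33 UMIs (-0.87, -1.53 to -0.23), as were Col20a1 with 30 and 20 UMIs (-0.67, -1.56 to 0.20) and Col14a1 with 29 and 16. Col4a5 had a ratio of 0.14 in cells with Y-linked UMIs. Among the 4 genes with most UMIs, Col5a2 was at -0.14 (-0.23 to -0.05), Col8a1 at -0.19 (-0.30 to -0.08) and Col18a1 at -0.23 (-0.37 to -0.10), and Col4a1 is given above. Col8a1 in EC-like cells was at 0.04 in cells with Xist and -0.88 in cells with Y-linked UMIs.

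**Figure D5:**
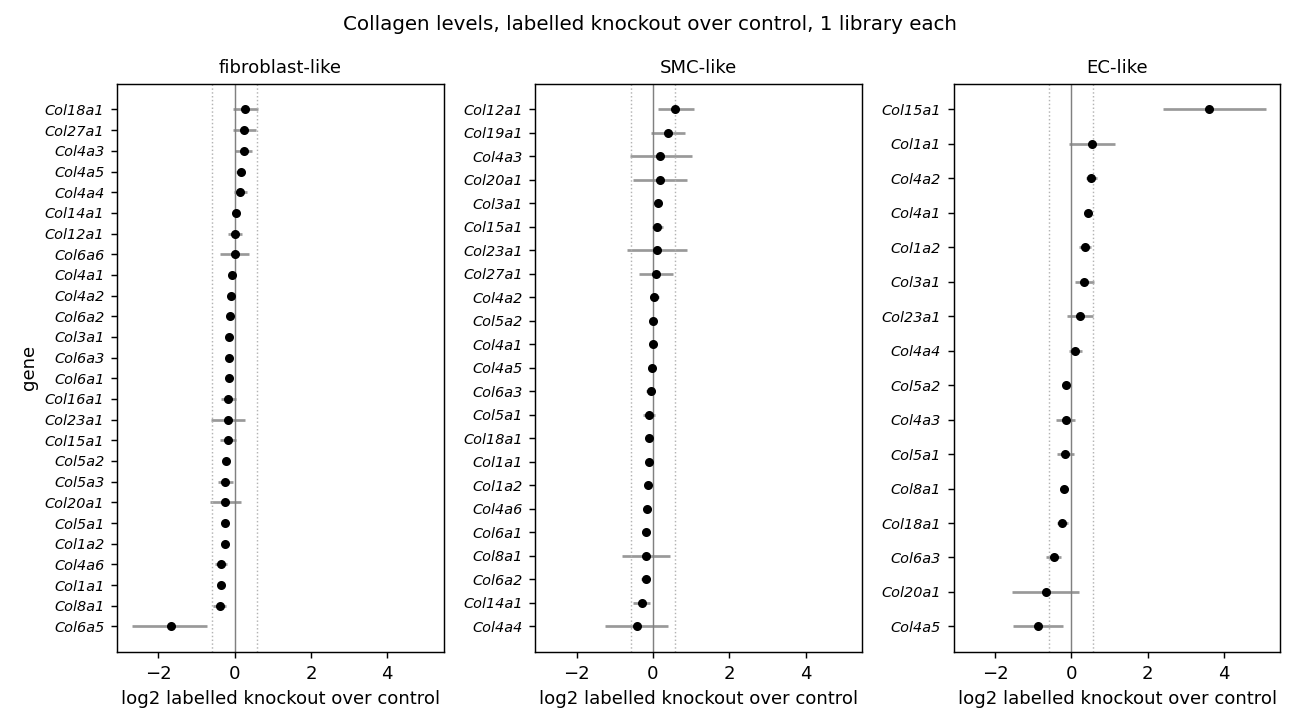
Log2 ratio of labelled knockout to control for each collagen gene with at least 50 UMIs in the class, with exact conditional 95% intervals of counting error and dotted lines at 1.5-fold. Most points lie between the dotted lines, and those outside are Col6a5 in fibroblast-like cells, Col12a1 at the edge in SMC-like cells, and Col15a1, Col20a1 and Col4a5 in EC-like cells.

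In leukocyte classes most collagen UMIs were too few to compare. Of 21 measured members in monocyte/macrophage-like cells 4 were at least 1.5-fold higher in the library labelled knockout, against 9.25% of all genes, and 2 lower, against 3.68%, none with more than 33 UMIs in a library. In neutrophil-like cells 0 of 12 were higher, against 8.97%, and 2 lower, against 10.9%. In dendritic-like cells 0 of 3 were higher, against 9.01%, and 0 lower, against 15.8%. In T/NK-like cells 0 of 3 were higher, against 10.9%, and 0 lower, against 12.1%. In B-cell-like cells 0 of 2 were higher, against 8.87%, and 1 lower, against 14.1%, with 18 and 12 UMIs of Col1a2.

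The genes that make, process and bind collagen were read from lists of 15, 8, 8, 5 and 10 genes. Hydroxylation of the chains needs the P4h, Plod and P3h enzymes. Plod2, a lysyl hydroxylase, was at 567 and 482 CPM in fibroblast-like, 226 and 201 CPM in SMC-like and 34.1 and 33.9 CPM in EC-like cells, while P4ha2 ran the other way at 33.3 and 26.0 CPM, 47.0 and 44.4 CPM, and 78.0 and 66.6 CPM. P3h2, a prolyl 3-hydroxylase, was at 36.7 and 39.9 CPM in SMC-like cells and 0.697 and 1.06 CPM in fibroblast-like cells. Serpinh1, the collagen chaperone, was at 1930 and 1642 CPM in fibroblast-like, 683 and 610 CPM in SMC-like and 624 and 464 CPM in EC-like cells. EC-like cells thus held Serpinh1 near the SMC-like level in the control library and below it in the library labelled knockout. Their collagen share was lower in both.

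Adamts2 and Loxl1 were low in EC-like cells, while Lox was not. Adamts2, which removes the amino-terminal propeptide, was at 213 and 203 CPM in fibroblast-like, 120 and 127 CPM in SMC-like and 3.21 and 3.27 CPM in EC-like cells. Loxl1, a cross-linking oxidase, was at 528 and 496 CPM, 289 and 259 CPM, and 8.64 and 6.77 CPM, while its relative Lox was at 503 and 390 CPM, 393 and 327 CPM, and 228 and 206 CPM. Of the receptors, Ddr2 was highest in fibroblast-like cells (487 and 477 CPM), Itga1 in SMC-like (264 and 244 CPM) and EC-like cells (211 and 175 CPM), and Lair1 was at most at 1.17 CPM in all 3.

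Between the libraries, no member of the folding and export list or of the cross-linking list passed 1.5-fold in the 3 stromal classes, with medians from -0.20 to -0.06 on the log2 scale. At the shares of all genes given above, between 4.55% and 5.86% in each direction, lists of 8 and 5 genes hold too few members to read a count of 0. Tll1, a protease that removes the carboxy-terminal propeptide, was lower in the library labelled knockout in fibroblast-like cells, at 33.8 and 21.6 CPM (-0.65, -0.85 to -0.44), and in SMC-like cells, with 62 and 26 UMIs (-1.63, -2.35 to -0.94). Itga10, a collagen-binding integrin chain, was lower in the same classes, with 55 and 27 UMIs (-1.10) and 90 and 69 UMIs (-0.76). In EC-like cells Pcolce2, which enhances propeptide removal, was higher with 67 and 140 UMIs (0.98, 0.55 to 1.43), as were P3h2 with 13 and 28 UMIs and Itga2 with 15 and 31. In fibroblast-like cells P3h2 was higher too, with 10 and 16 UMIs. No other gene of the 5 lists passed 1.5-fold in the 3 classes.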

How the data were processed

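The deposited values are raw UMI counts per gene and cell barcode, which the authors made with Cell Ranger 8.0.1 per the file headers; STAR, with no version, and the build mm10 are named in the submitters' processing notes. Every deposited barcode had at least 501 UMIs. Barcodes under 300 genes (224 control and 255 labelled knockout) or over 15% mitochondrial UMIs (335 and 348) were left out. A further 363 and 476 cells were removed as doublets at an assumed rate of 0.008 per 1000 cells. Cells were clustered (2000 variable genes without collagens and Gja1, 30 components, 20 neighbours, Leiden resolution 1.0; subclusters at 0.6), and clusters were named from markers. A shallow cluster of 287 and 313 cells stayed unnamed. Total counts per library are given in the text.

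Levels are CPM: the counts of a gene over all counts of its class in 1 library, with exact Poisson, Clopper-Pearson or conditional binomial intervals. In ratios a gene with under 3 UMIs in a library took 3 there. A ratio counts as past 1.5-fold at a log2 size of 0.58, for genes with at least 20 UMIs in the class. Differences between the libraries have no p-values. Members with values per library are the fibrillar and basement membrane genes with at least 100 UMIs and the 10 other collagens with most; between libraries, those with at least 50 UMIs past 1.5-fold and the 4 with most UMIs in the class. Of pathway genes, up to 5 per list with most UMIs and those past 1.5-fold with at least 50 UMIs could be named. Genes named beyond this rule were chosen after their values were seen. The members and lists were chosen with earlier results of these data known. Ratio calls were tested only on data simulated with counting error alone, which leaves out spread between cells, pools and libraries. Alternatives are given in the closing section. Clustering used leidenalg 0.10.2 on igraph 0.11.9 graphs and components from scikit-learn 1.9.0. Tables were handled with pandas 2.3.3 and NumPy 2.4.6 and intervals computed with SciPy 1.17.1, under Python 3.11.15. Plots were drawn with matplotlib 3.10.9.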

Additional observations from a re-analysis of the deposited data

Results flagged for a closer look

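Basement membrane collagens had ratios of opposite sign between the libraries in different classes: the log2 ratio of labelled knockout to control was -0.045 in fibroblast-like and -0.047 in SMC-like cells, and 0.26 in EC-like cells. The fibroblast-like value turned to 0.033 under median-of-ratios scaling and 0.015 as the mean of single-cell CPM, so its sign depends on the scaling. All collagens together also differed in sign, at -0.19 in fibroblast-like and -0.031 in SMC-like cells against 0.07 in EC-like cells. These differences between classes were not tested. Without the Fabp4-led subcluster the EC-like values were -0.016 and -0.013.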

How the results depend on the processing

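Values are those of the library labelled knockout over control on the log2 scale unless stated. The fibroblast-like share of collagen UMIs (80.3% and 75.4%) was 79.5% and 74.9% with up to 25% mitochondrial UMIs, 79.9% and 75.0% with at least 500 genes per cell, 80.0% and 74.9% with doublets kept and 81.6% and 76.6% after subtracting free RNA. It was 80.1% in the control library with collagens among the clustering genes and 75.7% in the other at resolution 0.5. The highest over the lowest subcluster share, control first, was 2.00 and 1.84 in fibroblast-like and 1.46 and 2.26 in EC-like cells at resolution 0.3, with 1.18 in SMC-like control cells. At resolution 1.0 it was 2.57 and 2.76, 1.91 and 2.86, and 1.48 and 1.59 in SMC-like cells. The members past 1.5-fold (3 of 28 in fibroblast-like, 3 of 26 in SMC-like and 5 of 18 in EC-like cells, against 11.5%, 10.3% and 11.4% of all genes) were 0 of 25, 1 of 18 and 0 of 13 with at least 100 UMIs, where 4.06%, 3.04% and 3.6% of all genes passed in either direction. With at least 1 UMI they were 7 of 35 in fibroblast-like and 9 of 32 in EC-like cells, against 14.9% and 14.5%. In EC-like cells 2 of 18 passed 2-fold, against 3.6%, and 3 of 17 passed 1.5-fold without the Fabp4-led subcluster, against 10.7%. In fibroblast-like cells 1 of 27 passed without the S100a8-led subclusters, against 11.7%.

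All collagens in EC-like cells were at 0.032 with doublets kept, 0.027 as the mean of single-cell CPM, 0.13 under median-of-ratios scaling, 0.14 in cells with Xist, 0.0051 in cells with Y-linked UMIs and -0.013 without the Fabp4-led subcluster. In SMC-like cells they were at -0.0016 under median-of-ratios scaling. In fibroblast-like cells they were at -0.17 with at least 500 genes and as the mean of single-cell CPM, -0.11 under median-of-ratios scaling and in cells with Xist, and -0.20 without the Ifit3-led subclusters. Fibrillar collagens there were at -0.20, -0.20, -0.14 and -0.12 in the same order, -0.19 in cells with Y-linked UMIs and -0.23 without the Ifit3-led subclusters. Basement membrane collagens in EC-like cells were at 0.38 in cells with Xist, 0.35 with Col15a1 and Col18a1 counted with the other collagens and -0.016 without the Fabp4-led subcluster. In fibroblast-like cells they reversed to 0.033 under median-of-ratios scaling and 0.015 as the mean of single-cell CPM, and other collagens to 0.015 under the former. In cells with Y-linked UMIs, EC-like Col18a1 reversed to 0.046, Col4a5 to 0.14 and Col5a2 to 0.023. SMC-like Col18a1 reversed to 0.015 and Col1a1 to 0.18 in cells with Y-linked UMIs. There EC-like Col15a1 was at -0.13 (-2.49 to 2.56) because its 2 control UMIs were raised to 3. Its CPM was 1.97 in control and 2.71 in labelled knockout cells. EC-like Col8a1 reversed to 0.040 in cells with Xist. The cause was not tested.

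The runs without named subclusters or without the cell with most UMIs of a gene were chosen after seeing the data. No paired analysis was possible because each group is 1 library and no result comes from a test, and no replicate could be left out. Depth limits rare members: Col20a1, with 30 and 20 UMIs in EC-like cells, passed 1.5-fold with an interval of -1.56 to 0.20.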
